A study of Mus musculus with 20 samples.

Results

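Spint1, Spint2 and St14 were followed across 20 arrays of mouse splenic natural killer (NK) cells. They are 3 of 17481 genes tested, carried by 5 of 41174 probes, and all 5 probes passed the filter of being well above background on at least 5 arrays. Spint1 was chosen because its signal differed between ptaquiloside and control mice on these same arrays, and Spint2 and St14 were added as its close relative and its protease target. The choice was made by looking at control against each treated group. Values that compare a treated group with control are therefore given as a description without a test.

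The cells came from the spleens of male C57BL/6 mice, 5 per group and a different mouse for each array. One group received ptaquiloside, the carcinogenic glucoside of bracken fern, at 5.3 mg/kg. A second received ptaquiloside at 5.3 mg/kg plus selenium, a trace element built into selenoproteins, at 1.3 mg/kg, and another selenium alone at 1.3 mg/kg. Control mice received water, and all groups were dosed by gavage daily for 14 days. NK cells were obtained by holding back other spleen cells on magnetic columns, so cells that escaped removal would add their RNA to the sample. Values are log2 processed signals minus the log2 of the 75th percentile of the same array, so 0 is that percentile and 1 unit is a doubling of signal. The level of one probe cannot be set against that of another.

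Of 14 NK marker genes 14 were measured. The cytotoxic granule gene Nkg7 averaged 7.03 ± 0.17 with ptaquiloside (7.07 ± 0.18 without mouse 4, n = 4), 7.05 ± 0.39 with ptaquiloside plus selenium, 7.30 ± 0.51 with selenium and 6.94 ± 0.40 in control (log2, SD, n = 5 each). Sums over a marker list, here and below, weigh its brightest probes most. Summed NK marker signal was 351 to 662 times the array's 75th percentile with ptaquiloside (506 to 662 without mouse 4), 388 to 656 times with both compounds, 481 to 816 times with selenium and 376 to 690 times in control. These ranges overlapped, although the selenium mean was above control for 14 of 14 NK genes (median difference 0.24) and the mean with both compounds was below that with selenium for 13 of 14 (median -0.11). Markers of other spleen cells were measured as well, among them 10 of 11 neutrophil genes. The array of ptaquiloside mouse 4 was dim, with a 75th percentile of 10.5 scanner units against 45.5 to 133 on the other 19, and 36.3% of its spots were well above background against 51.7% to 60.8%. Results that rest on it are given with and without it. Mice of the same number shared a slide, and each group always held the same position on the slides, so the effects of position and of treatment cannot be told apart.

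Spint1 and Spint2 encode hepatocyte growth factor activator inhibitors, membrane-anchored proteins whose Kunitz domains block serine proteases at the cell surface. St14 encodes matriptase, a transmembrane serine protease best known from epithelia, where it activates other proteases and growth factors, maintains the skin barrier and is held in check by the Spint1 and Spint2 proteins. The Spint1 protein also accompanies matriptase on its way to the plasma membrane. The genes are usually studied in epithelial cells rather than in lymphocytes.

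The array reads each transcript through a probe of 60 bases, and the probe sequences are shown because each value below is the signal at one of them. Coordinates are those given in the scanner files on mm9 (NCBI37). Spint1 probe 1 lies at chr2:119074929-119074988 on the plus strand and Spint1 probe 2 at chr2:119074137-119074549 on the plus strand. The single Spint2 probe lies at chr7:30041342-30041401 on the minus strand. St14 probe 1 lies at chr9:30897249-30897308 and St14 probe 2 at chr9:30908023-30910462, both on the minus strand. The intervals of Spint1 probe 2 and St14 probe 2, 413 and 2440 bases long for 60 bases of probe, contain a gap in the genome, as a probe across a splice junction does. These 2 are printed whole, and the others by their first 30 bases. Capitals mark an AATAAA hexamer, the letters of the canonical polyadenylation signal, found from base 17 of the Spint2 probe.
Spint1 probe 1, first 30 bases: atagaaggacctgcttatccaagagctgga
Spint1 probe 2: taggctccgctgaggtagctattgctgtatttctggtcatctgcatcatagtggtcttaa
Spint2 probe, first 30 bases: ctgaaagaatgtgtttAATAAAgtgggcct
St14 probe 1, first 30 bases: ctcagagttcttccaaagtgggaccccctc
St14 probe 2: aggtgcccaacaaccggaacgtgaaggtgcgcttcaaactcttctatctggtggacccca
The 2 Spint1 probes are 379 bases apart and the 2 St14 probes 10714 bases. Exon and untranslated region annotation on this build was not used here.

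Spint1, the inhibitor, had a higher signal in all treated groups than in control. At Spint1 probe 1, ptaquiloside mice 1 to 5 had log2 signals of 0.15, -0.78, -2.26, -0.93 and -0.36. Mice given both compounds had 0.59, -1.41, -1.21, -0.91 and 0.03. Selenium mice had -0.77, -1.12, 0.14, -0.57 and 0.24, and control mice had -1.72, -4.07, -3.20, -2.93 and -2.12. Of the 15 treated arrays 14 lay above the highest control, and the one that did not was ptaquiloside mouse 3. The control group did not overlap with the mice given both compounds, as for 0.0634% of genes, or with the selenium mice, as for 0.213%. On the linear scale the processed signals were 5.51 to 126 scanner units with ptaquiloside (19.1 to 126 without mouse 4), 44.7 to 200 with both compounds, 41.2 to 151 with selenium and 6.90 to 36.7 in control. The probe was well above background on 19 of 20 arrays, the exception being ptaquiloside mouse 4.

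Mean Spint1 levels ran in the order selenium, both compounds, ptaquiloside and control. They were -0.84 ± 0.90 with ptaquiloside, -0.58 ± 0.86 with both compounds, -0.42 ± 0.59 with selenium and -2.81 ± 0.93 in control (SD, n = 5 each), and -0.82 ± 1.04 with ptaquiloside without mouse 4 (n = 4). Neighbours among the 3 treated groups differed by less than their SD, and control lay below them by more than its SD. Log2 differences from control were 1.97 ± 0.50 for ptaquiloside, 2.22 ± 0.50 for both compounds and 2.39 ± 0.50 for selenium (SE), or 3.92-fold, 4.67-fold and 5.25-fold. These folds rest on dim control signals and shrank to 0.70, 0.80 and 0.88 on the log2 scale with normexp background correction. Among the 17481 genes these differences ranked 3 from the highest for ptaquiloside and 1 for each of the other groups. As Spint1 was chosen on part of these values, nothing is read from the ranks. The 3 comparisons share their control arrays, so they are not separate observations of a low control level. In bulk samples fewer cells that express a gene and less of its RNA per cell cannot be told apart.

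The second Spint1 probe gave the same order of group means. Its log2 signals were -1.68, -2.26, -3.08, -0.84 and -1.65 with ptaquiloside and -0.64, -2.78, -2.15, -2.03 and -1.09 with both compounds. They were -1.96, -2.43, -1.12, -1.63 and -0.92 with selenium and -2.63, -5.21, -4.22, -3.64 and -3.44 in control. Of the treated arrays 13 lay above the highest control, the dim array of ptaquiloside mouse 4 among them. Ptaquiloside mouse 3 and mouse 2 of the group given both compounds did not. Means were -1.90 ± 0.83 with ptaquiloside (-2.17 ± 0.67 without mouse 4), -1.74 ± 0.86 with both compounds, -1.61 ± 0.61 with selenium and -3.83 ± 0.96 in control (SD, n = 5 each, or 4). The differences from control were 1.93, 2.09 and 2.22 (SE 0.50 each). The correlation between the 2 probes was 0.95 over 20 arrays and 0.98 without ptaquiloside mouse 4, both probes being read on the same arrays.

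**Figure D1:**
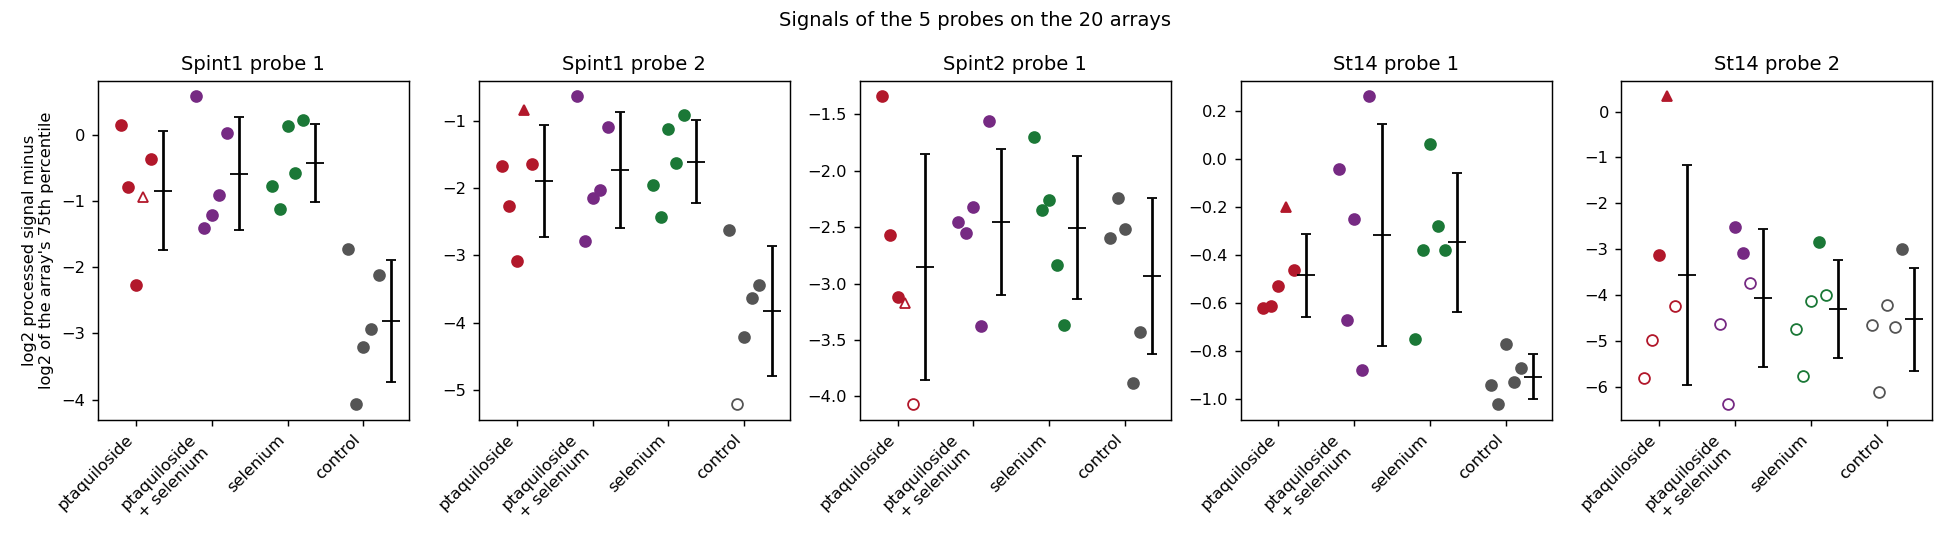
Signals of the 5 probes (y axis, log2 processed signal minus log2 of the array's 75th percentile, a separate scale for each panel) in ptaquiloside, ptaquiloside plus selenium, selenium and control mice. Each point is an array, bars show mean and SD (n = 5), open points are not well above background and triangles are the dim array of ptaquiloside mouse 4; the control group lies low for both Spint1 probes and for St14 probe 1, while the Spint2 groups overlap.

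Within slides the Spint1 difference had the same sign in every pair. Ptaquiloside exceeded the control of its slide by 1.86, 3.29, 0.94, 2.00 and 1.76 at probe 1 on slides 1 to 5, the value of slide 4 resting on the dim array. Both compounds exceeded it by 2.30, 2.66, 1.99, 2.02 and 2.15, and selenium by 0.95, 2.95, 3.34, 2.36 and 2.36. The group given both compounds had the narrowest range over slides. All 15 treated arrays lay above the control array of their slide at both Spint1 probes, which held for 13 of the 17342 genes with complete values (0.075%). As Spint1 was chosen on part of these values, nothing is read from that share for Spint1.

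St14, the protease, had a smaller difference in the same direction at probe 1, which was well above background on 20 of 20 arrays. The log2 signals were -0.62, -0.61, -0.53, -0.20 and -0.46 with ptaquiloside and -0.04, -0.67, -0.25, -0.88 and 0.26 with both compounds. They were -0.75, -0.38, 0.06, -0.28 and -0.38 with selenium and -0.94, -1.02, -0.77, -0.93 and -0.87 in control. Of the 15 treated arrays 14 lay above the highest control, the dim array of ptaquiloside mouse 4 among them. Mouse 4 of the group given both compounds did not. Control values did not overlap with those of ptaquiloside mice, as for 0.0577% of genes (0.202% without mouse 4), or with those of selenium mice, as for 0.213%. The control mice differed little from each other, with an SD of 0.09 against 0.17 for ptaquiloside (0.07 without mouse 4), 0.47 for both compounds and 0.29 for selenium.

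Mean St14 levels at probe 1 were -0.48 with ptaquiloside (-0.55 without mouse 4), -0.32 with both compounds, -0.35 with selenium and -0.91 in control. The differences from control were 0.42, 0.59 and 0.56 (SE 0.21 each), or 1.34-fold, 1.50-fold and 1.47-fold, and the first was 0.35 without mouse 4. The neighbouring treated means differed by less than their SD, and control lay below them by more than its own. By size these differences ranked 3903, 195 and 360 from the highest among 17481 genes. The ranks of Spint1 are no measure for these, as Spint1 was chosen on part of such values. Within slides all 15 treated arrays lay above their control. They did so by 0.24 to 0.73 with ptaquiloside, 0.04 to 1.13 with both compounds and 0.19 to 0.83 with selenium. The value of 0.73 came from the dim array. Genes higher on 5 of 5 slides made up 2.47%, 1.52% and 5.4% of all genes in these comparisons.

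St14 probe 2 gave no such picture. It was well above background on only 6 of 20 arrays, and why the 2 probes differ was not tested. Its mean was -3.57 ± 2.40 with ptaquiloside (-4.54 ± 1.14 without mouse 4), -4.07 ± 1.51 with both compounds, -4.30 ± 1.07 with selenium and -4.53 ± 1.12 in control (SD, n = 5 each, or 4). The highest value, 0.33, came from the dim array of ptaquiloside mouse 4. Of the treated arrays 9 lay above the control of their slide, and 3 above the highest control. The 2 St14 probes correlated at 0.33 over 20 arrays and 0.26 without that mouse, so the St14 values here stand for probe 1 alone.

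Spint2, the second inhibitor, showed overlapping groups. Its log2 signals were -1.34, -2.57, -3.12, -3.17 and -4.07 with ptaquiloside and -2.45, -2.55, -2.32, -3.38 and -1.56 with both compounds. They were -1.70, -2.35, -2.26, -2.84 and -3.37 with selenium and -2.60, -2.24, -2.52, -3.88 and -3.43 in control. Only 3 of the 15 treated arrays lay above the highest control. Means were -2.85 ± 1.00 with ptaquiloside, -2.45 ± 0.65 with both compounds, -2.50 ± 0.63 with selenium and -2.93 ± 0.69 in control (SD, n = 5 each), and no neighbours in the order of means differed by more than their SD. The differences from control were 0.08, 0.48 and 0.43 (SE 0.46 each), with intervals at 95% of -0.88 to 1.04, -0.48 to 1.44 and -0.53 to 1.39. Without mouse 4 the ptaquiloside mean was -2.78 ± 1.14 (n = 4) and its difference 0.16. Within slides Spint2 was higher than control on 2 of 5 slides with ptaquiloside, 4 of 5 with both compounds and 4 of 5 with selenium. Signals not well above background were those of ptaquiloside mice 4 and 5.

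**Figure D2:**
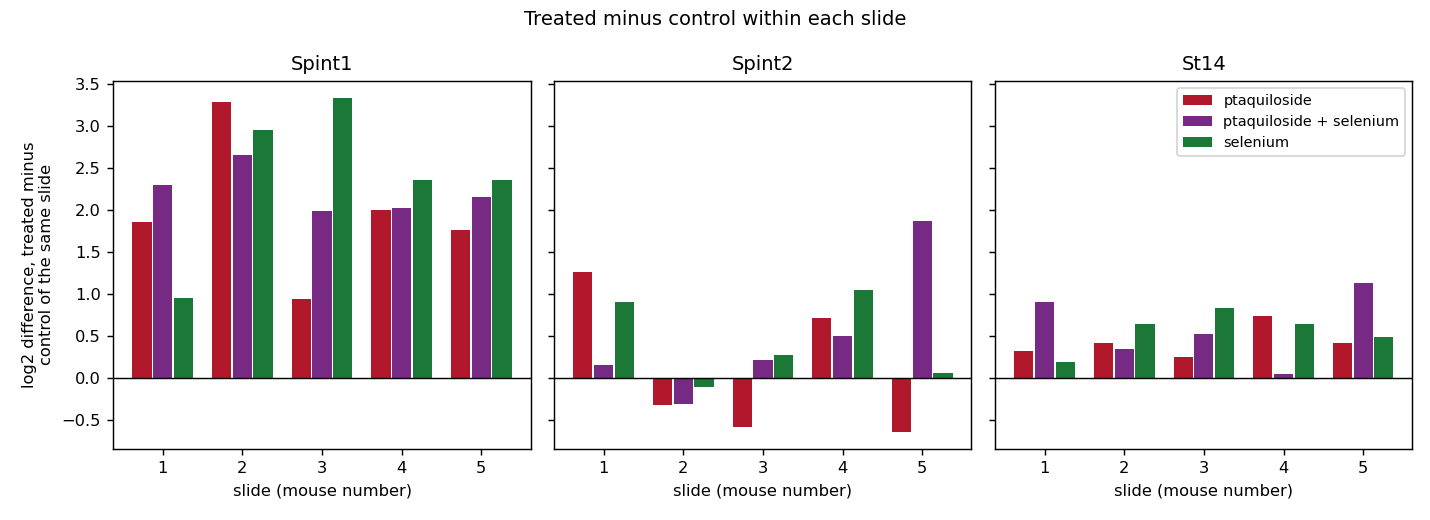
Log2 difference between each treated array and the control array of the same slide (y axis) for slides 1 to 5 (x axis), with bars for ptaquiloside, ptaquiloside plus selenium and selenium. Bars of Spint1 and St14 all lie above 0, between 0.94 and 3.34 for Spint1 and between 0.04 and 1.13 for St14, while those of Spint2 lie on both sides of 0; slide 4 of ptaquiloside rests on the dim array.

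Mice given both compounds were also set against mice given selenium alone, a comparison without the control arrays. Its arrays were among those looked at against control when the genes were chosen, so the tests below are not fully independent of that choice. It asks what ptaquiloside did in selenium-treated mice, and no difference was detected for the 3 genes. None of them had groups without overlap, which 0.098% of genes had with both compounds higher. Spint1 differed by -0.17 ± 0.50 (SE, interval at 95% -1.21 to 0.88, limma adjusted p = 1.0). It was higher with both compounds on 1 of 5 slides, with two-sided exact permutation p = 0.714 between groups and 0.625 within slides. St14 differed by 0.03 ± 0.21 (SE, -0.41 to 0.47, limma adjusted p = 1.0, exact permutation p = 0.897 and 0.875, higher on 2 of 5 slides). Spint2 differed by 0.05 ± 0.46 (SE, -0.91 to 1.01, limma adjusted p = 1.0, exact permutation p = 0.889 and 1.0, higher on 1 of 5 slides). The smallest p these permutations can give is 0.00794 between groups of 5 and 0.0625 within 5 slides, so the within-slide test could not pass 0.05. The intervals leave room for a 1.84-fold higher or 2.32-fold lower Spint1 signal with both compounds.

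Adding ptaquiloside to selenium thus came with a Spint1 difference of -0.17, and ptaquiloside without selenium with one of 1.97. The difference of these differences was -2.14 ± 0.71 (SE) for Spint1, -0.39 ± 0.30 for St14 and -0.03 ± 0.65 for Spint2, given as a description because control arrays enter it. Over all genes limma called 0 of 17481 (0.0%) in each of the comparisons of treated groups with control and of both compounds with selenium. Before adjustment, p was under 0.05 for 262 genes with ptaquiloside, 40 with both compounds and 184 with selenium, each against control. Between both compounds and selenium it was under 0.05 for 102 genes. Without ptaquiloside mouse 4, whose array enters the shared spread, these counts were 263, 105, 455 and 295, with 0 genes called. The methods' t-test on the values of all 20 arrays also called 0 genes in the comparisons with control. Its calls required an adjusted p under 0.05 and at least a doubling of signal in either direction. Genes passing the adjusted p alone were not counted. Its unadjusted p was under 0.05 for 124 genes with ptaquiloside, 173 with both compounds and 587 with selenium.

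Spint1 and St14 were compared array by array, since one protein restrains the other. The control arrays lay apart at the low end of both genes, so no test of correlation over all groups is read. The 5 control arrays are too few for a test of their own. The 12 relations of the adjustment below include those over all 20 arrays and over the 19 without ptaquiloside mouse 4. Over the 15 treated arrays Pearson's r was 0.47 (permutation p = 0.0792, adjusted 0.237 over 12 relations) and Spearman's rho 0.32 (p = 0.244, adjusted 0.496). Without the 2 arrays farthest from the Spint1 median r was 0.41, and without ptaquiloside mouse 4 it was 0.50 (n = 14, permutation p = 0.0725, adjusted 0.237). These permutations ignore the shared slides. With slide means removed and arrays permuted within slides, r was 0.59 (exact permutation p = 0.0329, adjusted 0.0988 over 6 relations) and 0.65 without mouse 4 (p = 0.0228, adjusted 0.0988), a test added after seeing the data. Neither form passed the threshold after adjustment. Over the same 15 arrays r was 0.23 for Spint1 and Spint2 (permutation p = 0.410, adjusted 0.471) and 0.22 for Spint2 and St14 (p = 0.434, adjusted 0.471).

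**Figure D3:**
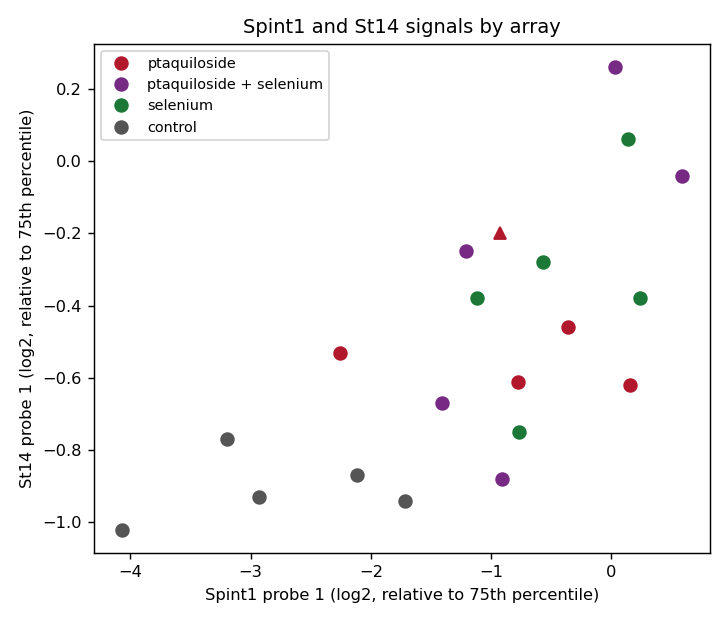
St14 probe 1 (y axis) against Spint1 probe 1 (x axis), both as log2 signal relative to the array's 75th percentile, with 1 point per array coloured by group and a triangle for the dim array of ptaquiloside mouse 4. The 5 control arrays sit at the lower left, between -4.07 and -1.72 for Spint1 and between -1.02 and -0.77 for St14, and the treated groups are intermixed.

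The genes whose pattern was most like that of Spint1 were found by Pearson's r over 19 arrays without ptaquiloside mouse 4, after removal of slide means, among 17341 other genes. They were Acpp (0.92), an acid phosphatase, Ahrr (0.92), which represses signalling by the aryl hydrocarbon receptor, Ccno (0.90), a cyclin of multiciliated cells, Gsdme (0.90), a pore-forming gasdermin, and Eif6 (0.85), a factor of ribosome assembly. St14 came at rank 10 (0.80) and Spint2 at rank 2692 (0.28). Means of Acpp were -0.83 with ptaquiloside, -1.06 with both compounds, -0.88 with selenium and -1.91 in control. Ahrr had -2.16, -2.39 and -2.48 in the treated groups in the same order, and -4.23 in control. Gsdme had 0.36, 0.48 and 0.30, and -0.90 in control. Acpp, Ahrr, Ccno and Gsdme had their lowest mean in control, as Spint1 did. Eif6 did not, with 3.73, 4.18 and 4.31 in the treated groups and 3.81 in control. All these ptaquiloside means include mouse 4, which the correlations leave out. They were not computed without it, so whether the low Eif6 mean with ptaquiloside rests on the dim array was not tested. The control arrays enter this measure of likeness, which is a description.

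For St14 the nearest genes were 1110008P14Rik (0.86), Slc4a8 (0.83), a bicarbonate transporter, Apol7c (0.83), an apolipoprotein L family member, D730045B01Rik (0.82) and Glrx5 (0.82), a mitochondrial glutaredoxin of iron-sulfur cluster assembly. Spint1 stood at rank 10 and Spint2 at rank 1579 (0.49). Apol7c averaged -0.92 with ptaquiloside, -0.53 with both compounds, -0.27 with selenium and -1.46 in control. Glrx5 averaged 1.99, 2.85 and 2.90 in the treated groups in the same order, and 2.62 in control. The ptaquiloside means of these 2 genes also include mouse 4 and were not computed without it.

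Genes around matriptase were counted from lists of 74 genes, of which 67 were on the array and 39 were tested. The lists hold proteases, growth factors, receptors, substrates and inhibitors. They also hold 15 epithelial regulators and markers, 9 of them tested. All are called pathway genes below. None of the 39 passed limma's threshold in any of the 4 comparisons, in each of which 0 of all 17481 genes did. Against control 12 were higher and 27 lower with both compounds (median -0.09, all genes 0.02) and 19 higher and 20 lower with selenium (median -0.00, all genes 0.01). For ptaquiloside the count was 25 higher and 14 lower (median 0.25, all genes -0.00), but 14 higher and 25 lower without mouse 4 (median -0.16), so the direction of that count rests on the dim array. For this reason the ptaquiloside values of the pathway genes named next leave out mouse 4 (n = 4), and the others are means of 5 mice.

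Several partners of matriptase in epithelia stayed below the level these arrays resolve. F2rl1, the protease-activated receptor cleaved by matriptase, and Prss8, prostasin, its partner protease in skin, were never well above background, nor were 19 other listed genes, among them Scnn1b of the sodium channel and the proteases Tmprss11d and Tmprss13. Among transmembrane serine proteases, 5 of 19 were tested. Hpn, hepsin, which also activates hepatocyte growth factor, averaged 2.03 ± 0.35 with ptaquiloside, 2.13 ± 0.49 with both compounds, 2.64 ± 0.50 with selenium and 2.32 ± 0.15 in control. Tmprss6, also called matriptase-2, is known from liver for its cleavage of hemojuvelin. It averaged 3.85 ± 0.29, 3.46 ± 0.27 and 3.79 ± 0.17 in the treated groups in the same order, and 3.47 ± 0.32 in control. Neither gene showed the low control level of Spint1.

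Hgf, the growth factor whose activation gives the Spint proteins their name, had lower means in treated mice. It averaged 0.55 ± 0.47 with ptaquiloside, 0.54 ± 0.36 with both compounds, 0.90 ± 0.47 with selenium and 1.10 ± 0.23 in control. Hgfac, the plasma protease that activates it, averaged -1.65 ± 0.58, -1.24 ± 0.69 and -1.26 ± 0.65 in the treated groups in the same order, and -1.41 ± 0.33 in control. Met, the receptor of the growth factor, averaged -0.11 ± 0.60, -0.06 ± 0.19 and -0.16 ± 0.47, and 0.18 ± 0.58 in control. For Met and Hgfac, treated groups differed from control by less than the larger SD of the pair.

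Plaur, the urokinase receptor, was a bright probe with 4.53 ± 0.37 with ptaquiloside, 4.41 ± 0.37 with both compounds, 4.00 ± 0.49 with selenium and 4.43 ± 0.44 in control. Cdcp1, a transmembrane glycoprotein that serine proteases cleave, averaged 1.12 ± 0.39, 1.64 ± 1.78 and 0.73 ± 1.44 in the treated groups in the same order, and 0.82 ± 0.57 in control. With mouse 4, at 5.11, the ptaquiloside mean of Cdcp1 was 1.91 ± 1.82. Epcam, an adhesion protein that matriptase cleaves in epithelia, averaged -3.36 ± 0.96, -3.58 ± 0.46 and -3.89 ± 0.56, and -3.83 ± 0.29 in control, and was well above background on 12 of 20 arrays.

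Among other inhibitors, App and Aplp2, which carry a Kunitz domain in some isoforms, did not share the Spint1 pattern. App averaged 0.61 ± 0.28 with ptaquiloside, 0.37 ± 0.56 with both compounds, 0.22 ± 0.65 with selenium and 0.79 ± 0.34 in control. Aplp2 averaged 4.35 ± 0.18, 4.32 ± 0.21 and 4.44 ± 0.25 in the treated groups in the same order, and 4.30 ± 0.14 in control. Serpinb2, an inhibitor of plasminogen activators, had higher means in treated mice, with 0.87 ± 1.04, 1.29 ± 0.92 and 1.55 ± 1.08, and 0.37 ± 0.54 in control. Its differences from control were 0.50 (without mouse 4), 0.92 and 1.18. Limma called 0 of 17481 genes in these comparisons, so the lack of a call says nothing particular about Serpinb2.

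**Figure D4:**
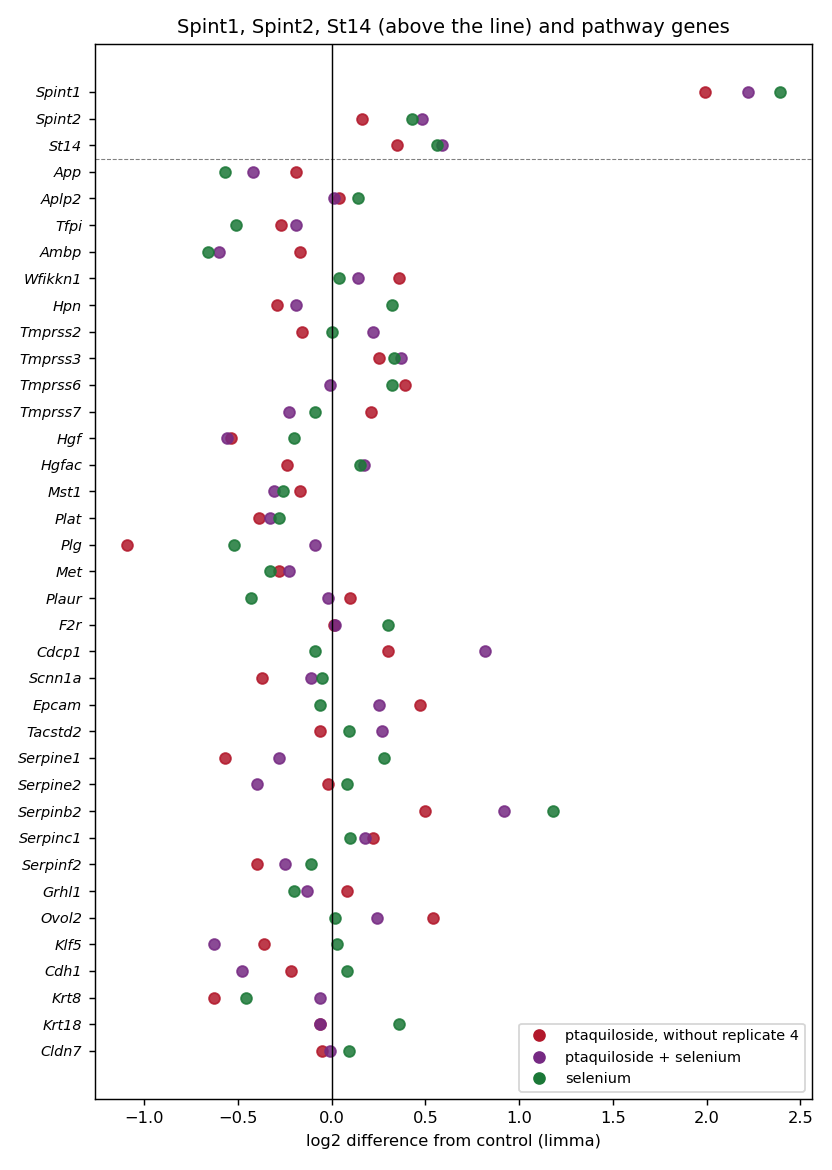
Log2 difference from control (x axis) of Spint1, Spint2 and St14, above the dashed line, and of pathway genes below it. The pathway genes, epithelial ones included, are those well above background on at least 10 arrays, 1 row per gene. Points are ptaquiloside without mouse 4, ptaquiloside plus selenium, and selenium. Spint1 stands at 1.99, 2.22 and 2.39, and the other genes lie between -1.09 (Plg with ptaquiloside) and 1.18 (Serpinb2 with selenium).

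Since Spint1 and St14 are epithelial genes by reputation, markers of epithelia and of other spleen cells were set beside them. Of 15 epithelial regulators and markers 9 were tested, and Ovol1, Esrp1 and Elf3 were never well above background. Their summed signal was 3.33 to 7.19 times the 75th percentile with ptaquiloside (3.33 to 5.56 without mouse 4), 3.32 to 5.06 with both compounds, 3.62 to 5.68 with selenium and 3.55 to 5.38 in control, with overlapping ranges. Cdh1, E-cadherin, averaged 0.58 ± 0.57 with ptaquiloside without mouse 4, 0.33 ± 0.41 with both compounds, 0.88 ± 0.29 with selenium and 0.80 ± 0.35 in control. The epithelial mean score had r = -0.14 with Spint1 and 0.22 with St14 over 19 arrays after removal of slide means, and 0.54 with Spint2.

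Of the marker lists the neutrophil list had the highest correlation with both genes, with r = 0.41 for Spint1 and 0.58 for St14 over the 19 arrays. Summed neutrophil signal was 123 to 314 times the 75th percentile with ptaquiloside (172 to 314 without mouse 4), 307 to 716 times with both compounds, 193 to 878 times with selenium and 216 to 449 times in control. With ptaquiloside 0 of 10 neutrophil genes were higher than in control and 10 were lower (median -0.53, and -0.25 without mouse 4), whereas 7 were higher with both compounds (median 0.48) and 9 with selenium (0.58). S100a9, a neutrophil calcium-binding protein, averaged 6.97 ± 1.01 with ptaquiloside (7.37 ± 0.57 without mouse 4), 8.05 ± 0.56 with both compounds, 8.04 ± 0.85 with selenium and 7.52 ± 0.59 in control. So in ptaquiloside mice Spint1 was above control while the neutrophil list was below it, and in both selenium groups both were above. The part of neutrophils in the Spint1 and St14 values was not tested.

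Scores of the other marker lists had r between -0.31 (B cells) and 0.26 (NK cells) with Spint1, and between -0.22 (macrophages and monocytes) and 0.14 (erythroid cells) with St14. With Spint2 they ran from -0.38 (NK cells) to 0.39 (erythroid cells). These correlations are descriptions over arrays that share slides and groups.

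Other marker lists also differed between the groups in which Spint1 and St14 were compared, with 0 of all 17481 genes called. With selenium, 0 of 10 B cell genes were higher than in control (median -1.03), as were 0 of 10 T cell genes (-0.44) and 3 of 13 macrophage and monocyte genes (-0.36), against 8 of 8 platelet genes (0.16). With both compounds, 3 of 10 B cell genes (-0.17), 7 of 10 T cell genes (0.07), 0 of 11 basophil and mast cell genes (-0.45) and 0 of 8 platelet genes (-0.22) were higher than in control. With ptaquiloside without mouse 4, 0 of 10 B cell genes (-0.52), 1 of 10 T cell genes (-0.20) and 8 of 8 platelet genes (0.10) were higher than in control, and with that mouse 2 (-0.58), 4 (-0.28) and 4 (-0.05). The median of the NK list was above control with both compounds (11 of 14 genes higher, 0.09) and with selenium (14 of 14, 0.24). With ptaquiloside it was above control without mouse 4 (12 of 14, 0.14) and below it with that mouse (5 of 14, -0.14). Between both compounds and selenium, where the 3 genes showed no detectable difference, 10 of 10 B cell genes (0.92) and 10 of 10 T cell genes (0.51) were higher with both compounds, against 0 of 8 platelet genes (-0.48) and 1 of 11 basophil and mast cell genes (-0.54). The part of these cell types in the Spint1, Spint2 and St14 values was not tested.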

How the data were processed

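RNA of NK cells from 20 mice was labelled with Cy3 and hybridised to Agilent mouse arrays, 1 per mouse. The deposited scanner files hold spot intensity values made with Agilent Feature Extraction 9.5.3.1, per the submitters' processing notes, background-subtracted but not scaled between arrays per the file headers; their flag and name columns are of unit other. The deposited table of the whole series gives log2 values. Comparison with the scanner files showed log2 processed signal plus 19.93 without scaling, and its last control and ptaquiloside columns are means of the other columns of the group. Control mice 2 to 5 stand in control columns 1 to 4, and ptaquiloside mouse 5 in ptaquiloside column 4. Column medians were 22.8 to 23.6. It was used as an alternative.

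From the intensity values, log2 signal minus the array's 75th percentile was computed without control and outlier spots, and 25046 probes that were well above background on 5 or more arrays were kept. Of all probes 25097 were named through accessions in the RefSeq gene table (GRCm38.p6, names only) and 16077 kept the file's name. The probe with the highest mean stood for its gene; for Spint1 and St14 this is probe 1. Groups were compared with limma 3.58.1 in R 4.3.3, with 1 mean per group over 20 arrays and two-sided Benjamini-Hochberg adjustment over 17481 genes at 0.05. The procedure was tested on simulated data. Permutation tests used scipy 1.17.1, exact for differences and with 100000 resamples for correlations, adjusted over 12 relations. Python 3.11.15 ran the rest.

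Mice with the same number share a slide, by the slide identifier in the file headers. Deviations of same-numbered arrays correlated at a median of 0.44 over 30 pairs (-0.34 to 0.71), against -0.08 for arrays differing in number and group. The number of arrays limits the precision.

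The rule for named genes covers all probes of the 3 genes, the 5 genes most like Spint1 and the 5 most like St14, pathway genes well above background on at least 10 arrays, and up to 4 markers per list by mean signal. The 3 genes and the lists were chosen with earlier results of these data known. Alternatives covered the centring, normalization, background correction, filter, slide block, other probes, the deposited table, the methods' t-test and leaving out each mouse. Pathway counts and marker values without ptaquiloside mouse 4, and correlations permuted within slides, were added after seeing the data.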

Additional observations from a re-analysis of the deposited data

How the results depend on the processing

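No alternative moved a call, since limma called 0 genes in each of the 4 comparisons in the settings run. The methods' t-test also called 0 genes in the 3 comparisons with control. Its calls required at least a doubling of signal in either direction besides the adjusted p. Against control, 39 to 1025 genes had an unadjusted p under 0.05 for ptaquiloside, 18 to 237 for both compounds and 65 to 948 for selenium. For both compounds against selenium the count was 35 to 641. Adjusted p of the tested comparison lay between 0.999 and 1.0 over 89 values. Normexp background correction with an offset of 50, which lifts all dim signals, lowered the differences from control. Those of Spint1 fell to 0.70 for ptaquiloside, 0.80 for both compounds and 0.88 for selenium. Those of St14 fell to 0.18, 0.28 and 0.29 in the same order. The second St14 probe gave 0.96 for ptaquiloside, 0.46 for both compounds and 0.23 for selenium. The value of 0.96 rests on the dim array of ptaquiloside mouse 4. Without it the ptaquiloside mean of this probe was -4.54, against -4.53 in control. Median centring moved the median of all genes by -0.24 for ptaquiloside against control and by -0.11 for both compounds against selenium.

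Between both compounds and selenium the sign of the small differences was not stable. Median centring gave -0.05 for Spint2 and -0.08 for St14, and -0.27 for Spint1. It subtracts 1 value per array and so shifts genes alike, here by -0.11 at the median of all genes. Normexp gave -0.01 for both Spint2 and St14, and the cause of that change was not tested. Leaving out 1 mouse in turn gave -0.46 to 0.04 for Spint1, -0.17 to 0.28 for Spint2 and -0.11 to 0.17 for St14 there. Against control it gave 1.65 to 2.33, 1.91 to 2.50 and 2.08 to 2.66 for Spint1 with ptaquiloside, both compounds and selenium, 0.35 to 0.46, 0.44 to 0.73 and 0.46 to 0.66 for St14, and -0.30 to 0.38, 0.25 to 0.71 and 0.19 to 0.65 for Spint2. Spint2 with ptaquiloside also stood at -0.15 under median centring and -0.47 under quantile normalization, and St14 at 0.19 under median centring and 0.18 with normexp. The deposited table gave 2.27, 2.50 and 2.66 for Spint1. Its averaged columns were left out of that fit, which thus lacked control mouse 1 and ptaquiloside mouse 4.

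With the replicate number (the slide) as a block the differences were those without it, 1.97, 2.22 and 2.39 for Spint1 against control, and it changed no call. With the block and without ptaquiloside mouse 4, ptaquiloside differed from control by 1.94 for Spint1, 0.31 for St14 and -0.03 for Spint2. Limits are the 5 mice per group, 1 dim array, and St14 values that stand for probe 1 alone. Further limits are the fixed position of each group on the slides, and RNA of mixed origin in cells isolated by removal of others.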
